A study of Mus musculus with 12 samples.

Results

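The genes described here encode the potassium channels that repolarize the heart muscle cell. There were 8 members, chosen by symbol: Kcnd2 (NCBI Gene 16508), Kcnd3 (56543), Kcnip2 (80906), Kcna5 (16493), Kcnj2 (16518), Kcnj3 (16519), Kcnh2 (16511) and Kcnq1 (16535). All 8 had a row among the 18079 genes of the expression table, and all 8 passed the filter on low values that left 11664 genes to be tested. RNA of left ventricular muscle was sequenced from 12 mice, with 1 library for each mouse and 3 mice in each of 4 groups. DMSO+Sham mice received the solvent and a sham operation, and hispidulin+Sham mice received hispidulin, a plant flavonoid, and the same operation. DMSO+AB and hispidulin+AB mice underwent banding of the descending aorta (AB), which narrows the vessel and raises the load on the left ventricle. The strain is C57BL/6 in the labels and C57BL/6J in the study's methods. The mice were males, 8 weeks old at the operation and 12 weeks old at harvest by the labels, 4 weeks later, and the study's methods give a wider range of ages at the operation. Hispidulin was given intraperitoneally at 20 mg/kg/day from 1 day ahead of the operation, and the other mice received DMSO in the same way. Values are FPKM, fragments mapped to a gene scaled by its transcript length and by the size of the library, as the authors deposited them. The number of reads behind them is not known, so no counting error can be given.

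A heart muscle cell contracts after a depolarization, and potassium leaving the cell through these channels ends it. In the mouse ventricle the fast transient outward current dominates the early phase. Kcnd2 and Kcnd3 encode its pore-forming subunits Kv4.2 and Kv4.3, and Kcnip2 encodes KChIP2, a calcium-binding partner that brings them to the membrane. Kcna5 encodes Kv1.5 of the ultrarapid delayed rectifier. Kcnh2 encodes ERG1 of the rapid and Kcnq1 encodes KvLQT1 of the slow delayed rectifier, which carry much of late repolarization in large mammals and little of it in the adult mouse. Kcnj2 encodes Kir2.1 of the inward rectifier that sets the resting potential, and Kcnj3 encodes GIRK1, a subunit of the acetylcholine-gated channel best known from the atrium and the sinus node. Loss of outward potassium current is a textbook feature of the hypertrophied and failing heart.

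Kcnip2, Kcnj3 and Kcnh2 are the members whose levels passed the test after AB, and the 250 bases ahead of their start sites are therefore shown, 5′ to 3′ on the strand of the gene, from RefSeq on GRCm38.p6. They lie at chr19:45816064-45816313 (minus strand) for Kcnip2, chr2:55435720-55435969 (plus strand) for Kcnj3 and chr5:24329592-24329841 (minus strand) for Kcnh2. Capitals mark a CCAAT box (CCAAT, or ATTGG for the other strand) or a GC box (GGGCGG, or CCGCCC for the other strand).
Kcnip2: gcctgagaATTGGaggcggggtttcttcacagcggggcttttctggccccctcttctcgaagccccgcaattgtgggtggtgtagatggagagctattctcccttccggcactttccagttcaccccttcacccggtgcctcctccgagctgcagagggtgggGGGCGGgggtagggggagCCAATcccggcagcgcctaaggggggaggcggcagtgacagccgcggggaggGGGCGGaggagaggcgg
Kcnj3: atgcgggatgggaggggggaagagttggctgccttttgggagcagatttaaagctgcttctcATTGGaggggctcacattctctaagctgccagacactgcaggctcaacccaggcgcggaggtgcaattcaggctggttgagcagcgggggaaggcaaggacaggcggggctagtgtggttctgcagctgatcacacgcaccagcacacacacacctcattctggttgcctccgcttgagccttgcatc
Kcnh2: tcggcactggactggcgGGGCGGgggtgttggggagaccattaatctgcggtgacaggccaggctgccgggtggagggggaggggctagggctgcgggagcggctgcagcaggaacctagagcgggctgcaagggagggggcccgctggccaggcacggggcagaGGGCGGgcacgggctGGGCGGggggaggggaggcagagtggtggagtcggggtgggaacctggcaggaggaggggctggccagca
In windows of 300 bases, which add 50 bases after the start, 7 members could be matched and Kcnq1 was not. The GC box stood in 5 of those members (Kcnd2, Kcnip2, Kcnj2, Kcnj3 and Kcnh2), against 35.7% of all 32851 windows. The CCAAT box stood in 3 (Kcnip2, Kcnj2 and Kcnj3), against 37.4% of all windows. A TATA box (TATAAA, or TTTATA) and a GATA site (AGATAA, or TTATCT) stood in none of the 7, against 13.6% and 11.2% of all windows. Kcnj2 alone held the E-box CACGTG, found in 7.15% of windows, and Kcna5 alone held the M-CAT element (CATTCC, or GGAATG) and the NFAT core (GGAAAA, or TTTTCC), found in 14.7% and 23.4%. The GC content of the members' windows ran from 55% in Kcna5 to 74.3% in Kcnh2, where the median of all windows was 52.7%. These are letters in a window, with no measurement of binding.

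The libraries had the marks of the labelled tissue and operation. Each of the 4 ventricular muscle markers was present, and their summed FPKM lay between 17800 and 25290. All 5 banding markers had higher levels in AB than in Sham mice with both treatments averaged (log2 difference from 1.76 to 3.57), and each passed. With DMSO alone 4 passed. With hispidulin alone 0 passed, and 4 were higher at an unadjusted p under 0.05 by limma. Not every marker separated all AB from all Sham mice. Among 6 markers of atrial muscle, 5 had a row, and 3 libraries stood apart in Myl7, the atrial myosin light chain. It had an FPKM of 333 in hispidulin+Sham replicate 3, 67.5 in DMSO+AB replicate 2 and 42.3 in hispidulin+AB replicate 3, and of 0.24 to 15.0 in the others. Members' results that passed are therefore given with and without these 3 libraries, a choice made after their values were seen.

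Averaged over the 12 mice, Kcnip2 had by far the highest level of the 8 genes, an FPKM of 94.2 ± 25.3 (SD, n = 12), or 54.4% of the summed FPKM of the members. The next genes stood in a different order in Sham and AB mice. In the 6 Sham mice, FPKM was 25.3 ± 6.98 for Kcnh2, 20.0 ± 3.99 for Kcna5 and 15.1 ± 2.94 for Kcnq1, and Kcnh2 was above Kcna5 in 5 and above Kcnq1 in all 6. In the 6 AB mice it was 14.8 ± 2.99 for Kcnh2, 19.1 ± 4.65 for Kcna5 and 14.4 ± 2.06 for Kcnq1, and Kcnh2 was above each of the others in 1 mouse. Kcna5 was above Kcnq1 in 4 of 6 mice with either operation, within their spread. Kcnj3 and Kcnj2 followed, with 12.8 ± 2.61 and 9.78 ± 3.29 in Sham and 6.07 ± 1.39 and 6.88 ± 2.11 in AB mice, and could not be ordered, since Kcnj3 was the higher in 3 of 6 and 2 of 6. The pore-forming subunits of the transient outward current were lowest, with 3.94 ± 1.41 for Kcnd2 and 1.73 ± 0.614 for Kcnd3 over the 12 mice, and in every mouse Kcnd2 was below Kcnj2 and above Kcnd3. The message for the partner KChIP2 was thus far more abundant per length than the messages for the pores it serves.

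After AB, the transient outward partner Kcnip2 and the acetylcholine-gated subunit Kcnj3 were lower. The rapid delayed rectifier Kcnh2 passed as lower only with both treatments averaged. Kcnd2, Kcnd3 and Kcnj2 had negative differences that did not pass, and Kcna5 and Kcnq1 differed little. In DMSO-treated mice, 2 of the 8 members, Kcnip2 and Kcnj3, passed limma's test at an adjusted p under 0.05, both lower in AB. Among all genes tested, 2.71% passed as lower and 5.21% in either direction. All 8 members had a negative log2 difference in this comparison, as did 55.8% of all genes, and the members' median was -0.69 where that of all genes was -0.03. With DMSO and hispidulin averaged, 3 members passed, Kcnip2, Kcnj3 and Kcnh2, all lower in AB, against 3.87% of all genes passing as lower and 7.39% in either direction. At an unadjusted p under 0.05, 5 members were lower in each of these comparisons (Kcnd2 and Kcnd3 besides the 3 named), against 11.1% of all genes with DMSO and 12.9% averaged. The median over the members was then -0.50, against -0.03 over all genes. Log2 differences are of FPKM + 1, a scale that understates the change of genes with low levels such as Kcnd3. In whole tissue, fewer cells of a type and less RNA per cell cannot be told apart.

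**Figure D1:**
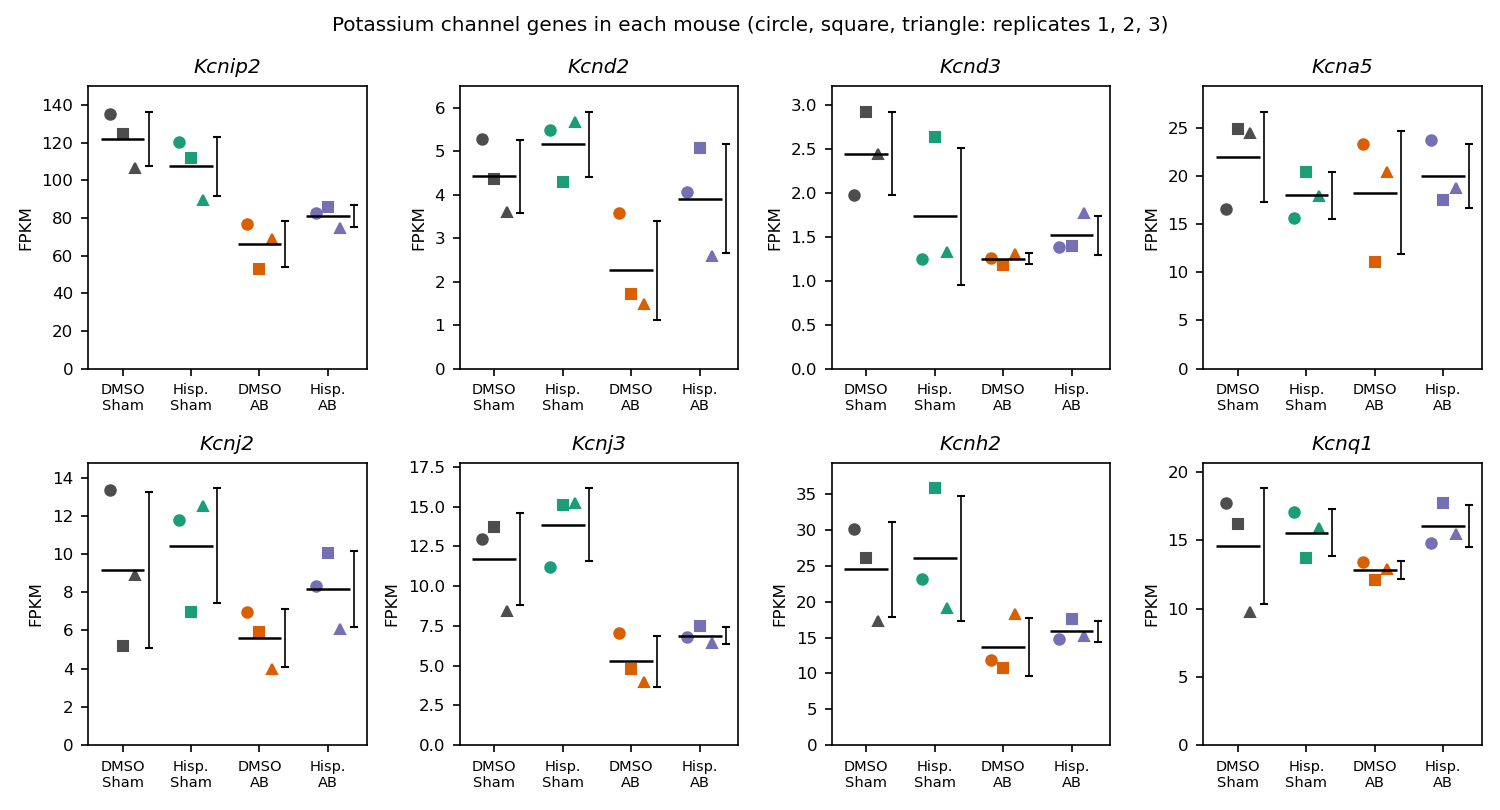
FPKM (vertical axis, linear from 0) of each of the 8 genes in each of the 12 mice, by group (horizontal axis). Circles, squares and triangles are replicates 1, 2 and 3, horizontal lines are group means and bars are ± 1 SD (n = 3). The AB mice of Kcnip2 (52.8 to 86.0) and of Kcnj3 (3.95 to 7.49) all sit below the Sham mice of the same gene (89.8 to 135 and 8.41 to 15.2), while those of Kcna5 and Kcnq1 overlap with Sham.

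Kcnip2, the partner subunit, had an FPKM of 135, 125 and 107 in the 3 DMSO+Sham mice and 121, 112 and 89.8 in the hispidulin+Sham mice. It had 76.9, 52.8 and 68.6 in DMSO+AB and 82.5, 86.0 and 74.4 in hispidulin+AB. Every AB mouse was below every Sham mouse, the closest being 86.0 against 89.8. Only Kcnip2 and Kcnj3 of the members separated all 6 AB from all 6 Sham mice in this way, against 2.8% of all genes tested that separated with AB lower. The mean in DMSO+AB was 54.1% of that in DMSO+Sham, a log2 difference of -0.89 (standard error 0.15, limma adjusted p = 0.0111). In hispidulin-treated mice the AB mean was 75.4% of the Sham mean, with a log2 difference of -0.39 (95% interval -0.73 to -0.06, adjusted p = 0.611). Averaged over both treatments the difference was -0.64 (adjusted p = 0.00634). Without the 3 Myl7-high libraries it was -0.60 (adjusted p = 0.0366), and the DMSO difference was -0.74 (adjusted p = 0.0588). The DMSO call was also lost without DMSO+Sham replicate 1 (-0.81, adjusted p = 0.0540) and with only the libraries compared in the fit (-0.89, adjusted p = 0.111).

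Kcnd2, which encodes Kv4.2, had an FPKM of 5.29, 4.36 and 3.61 in DMSO+Sham and 5.49, 4.29 and 5.68 in hispidulin+Sham. The AB values were 3.57, 1.72 and 1.49 with DMSO and 4.07, 5.07 and 2.58 with hispidulin. With DMSO the groups did not overlap, although 3.57 in replicate 1 came close to 3.61 in Sham replicate 3, and with hispidulin the AB and Sham mice overlapped. The mean in DMSO+AB was 51.1% of the DMSO+Sham mean, and the log2 difference of -0.78 (standard error 0.24) had an adjusted p of 0.0908 from limma. Averaged over treatments it was -0.56 (adjusted p = 0.0681), so Kcnd2 did not pass in either comparison. Without DMSO+AB replicate 1, the highest of that group, it passed with DMSO (-1.05, adjusted p = 0.0151) and averaged (-0.70, adjusted p = 0.0130). With library weights it also passed in both (-0.95, adjusted p = 0.0290, and -0.61, adjusted p = 0.0150). Without the 3 Myl7-high libraries it was -0.67 with DMSO (adjusted p = 0.293) and -0.38 averaged (adjusted p = 0.423).

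Kcnd3, which encodes Kv4.3, had an FPKM of 1.97, 2.92 and 2.44 in DMSO+Sham and 1.24, 2.63 and 1.32 in hispidulin+Sham. It had 1.26, 1.18 and 1.30 in DMSO+AB and 1.38, 1.39 and 1.77 in hispidulin+AB. The DMSO+AB mice were close to each other and all below DMSO+Sham, while in hispidulin+Sham only replicate 2 stood above the level of the AB mice. The log2 difference was -0.61 with DMSO (adjusted p = 0.0740) and -0.09 with hispidulin (95% interval -0.48 to 0.30). The DMSO difference passed in the fit without hispidulin+Sham replicate 2 (-0.61, adjusted p = 0.0338). In all, 4 members (Kcnd2, Kcnd3, Kcnip2 and Kcnj3) did not overlap between DMSO+AB and DMSO+Sham with AB lower, against 10.8% of all genes. Averaged over treatments the difference of Kcnd3 was -0.35 (adjusted p = 0.121).

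The balance among the transient outward subunits was taken as ratios of FPKM within each mouse, which do not depend on library scaling. Kcnip2 was 17.8 ± 0.766 times the sum of Kcnd2 and Kcnd3 in DMSO+Sham and 15.6 ± 2.59 times in hispidulin+Sham (mean ± SD, n = 3). After AB it was 19.6 ± 4.49 times with DMSO and 15.2 ± 1.90 times with hispidulin. The ratio of Kcnd2 to Kcnd3 was 1.89 ± 0.692, 3.45 ± 1.58, 1.81 ± 0.898 and 2.69 ± 1.12 in the same order of groups. Mice of AB and Sham overlapped in both ratios. In a two-sided exact permutation test of AB and Sham within each treatment (400 labellings), p was 0.78 for the first ratio, 0.545 for the second and 0.62 for Kcnip2 to Kcnd2. The average log2 differences between AB and Sham were 0.04, -0.22 and 0.10.

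**Figure D2:**
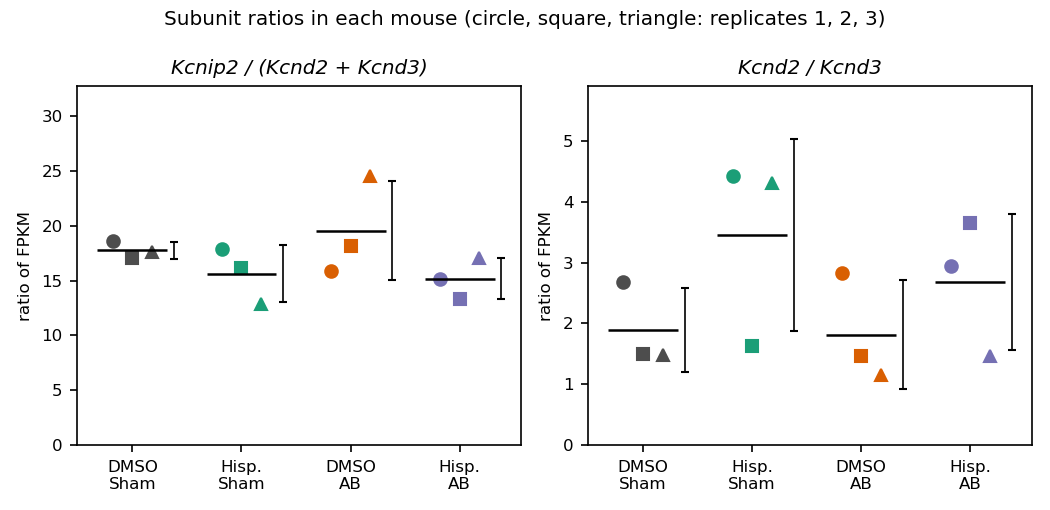
Ratio of FPKM within each mouse (vertical axis, linear from 0) of Kcnip2 to the sum of Kcnd2 and Kcnd3 (left) and of Kcnd2 to Kcnd3 (right), by group. Symbols are replicates 1, 2 and 3, lines are means and bars ± 1 SD (n = 3). The highest Kcnip2 ratio, 24.6, is DMSO+AB replicate 3 and the lowest, 12.8, is hispidulin+Sham replicate 3.

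Kcna5, which encodes Kv1.5, had an FPKM of 16.6, 24.9 and 24.5 in DMSO+Sham and 15.6, 20.5 and 17.9 in hispidulin+Sham. After AB it had 23.4, 11.1 and 20.4 with DMSO and 23.8, 17.5 and 18.8 with hispidulin. The groups overlapped in every comparison, and the lowest value was that of DMSO+AB replicate 2. The difference of AB from Sham was -0.08 averaged over treatments (95% interval -0.45 to 0.30, limma adjusted p = 0.840). It was -0.29 with DMSO and 0.14 with hispidulin, and no difference was detectable beyond the spread between mice. Of the 2813 stretches of 50 bases in the transcripts of Kcna5, 79 (2.81%) were shared with its neighbour Kcna6, whose reads of that length cannot be told apart.

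Kcnj3, which encodes GIRK1, had an FPKM of 13.0, 13.7 and 8.41 in DMSO+Sham and 11.2, 15.1 and 15.2 in hispidulin+Sham. It had 7.04, 4.79 and 3.95 in DMSO+AB and 6.78, 7.49 and 6.39 in hispidulin+AB. All AB mice lay below all Sham mice, with 7.49 and 8.41 as the nearest values. The mean in DMSO+AB was 44.9% of the DMSO+Sham mean and the mean in hispidulin+AB was 49.7% of the hispidulin+Sham mean, the lowest of these percentages among the 8 members. The log2 difference was -1.02 (standard error 0.21, limma adjusted p = 0.0197) with DMSO, -0.90 (standard error 0.21, adjusted p = 0.310) with hispidulin and -0.96 (adjusted p = 0.00407) averaged. The DMSO call was lost without DMSO+Sham replicate 1 (-0.94, adjusted p = 0.0832), DMSO+AB replicate 2 (-0.98, adjusted p = 0.0828) or DMSO+AB replicate 3 (-0.87, adjusted p = 0.0704), and the averaged call in none of the 12 fits that left out 1 library. Without the 3 Myl7-high libraries, the averaged difference was -0.89 (adjusted p = 0.0904) and that with DMSO -0.98 (adjusted p = 0.175). With only the libraries compared in the fit, the DMSO call was also lost (-1.02, adjusted p = 0.153). In hispidulin+Sham replicates 1, 2 and 3, where Kcnj3 was 11.2, 15.1 and 15.2, Myl7 was 0.27, 0.29 and 333, and the part of atrial tissue in the level of Kcnj3 was not tested. Of the exonic bases of Kcnj3, 31.1% overlap Gm26794, a non-coding gene on the opposite strand, and the library's strand was not stated, so reads of the 2 genes cannot be told apart there.

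Kcnj2, which encodes Kir2.1, had an FPKM of 13.3, 5.17 and 8.92 in DMSO+Sham and 11.8, 6.97 and 12.5 in hispidulin+Sham. It had 6.96, 5.91 and 3.96 in DMSO+AB and 8.34, 10.04 and 6.07 in hispidulin+AB. The Sham mice were spread widely and the AB mice overlapped with them, with replicate 2 the lowest of each Sham group. The log2 difference was -0.56 with DMSO (adjusted p = 0.327 from limma, and -0.88 to -0.27 with 1 library left out). It was -0.43 averaged over treatments (95% interval -0.91 to 0.04, adjusted p = 0.256). With these values a fall of this size could not be told from no change.

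Kcnh2, which encodes ERG1, had an FPKM of 30.2, 26.2 and 17.3 in DMSO+Sham and 23.1, 35.9 and 19.2 in hispidulin+Sham. The AB values were 11.9, 10.8 and 18.3 with DMSO and 14.8, 17.6 and 15.3 with hispidulin. With hispidulin all AB mice were below all Sham mice, and with DMSO replicate 3 of AB, at 18.3, exceeded replicate 3 of Sham, at 17.3. The log2 difference was -0.80 with DMSO (limma adjusted p = 0.0951), -0.64 with hispidulin (adjusted p = 0.635) and -0.72 averaged (standard error 0.18, adjusted p = 0.0324). With 1 library left out, the hispidulin difference ran from -0.82 to -0.39. The DMSO comparison passed without DMSO+Sham replicate 3, the lowest of that group (-1.02, adjusted p = 0.0422), with library weights (-1.15, adjusted p = 0.0139) and with heart muscle markers subtracted (-0.89, adjusted p = 0.0409). The averaged call was the least stable of the 3, since it held in 4 of 12 fits with 1 library left out. It was lost without replicate 1 of DMSO+Sham, replicate 1 or 2 of hispidulin+Sham, replicate 1 or 2 of DMSO+AB, or any hispidulin+AB mouse, with an adjusted p of 0.0519 to 0.0836. Without the 3 Myl7-high libraries the difference was -0.73 (adjusted p = 0.161). The averaged call was also lost without the filter on low values (-0.72, adjusted p = 0.0620). With the code series described below as a factor it was lost too (-0.53, adjusted p = 0.0732).

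Kcnq1, which encodes KvLQT1, had an FPKM of 17.8, 16.2 and 9.76 in DMSO+Sham and 17.1, 13.7 and 15.9 in hispidulin+Sham. It had 13.4, 12.1 and 12.9 in DMSO+AB and 14.8, 17.8 and 15.5 in hispidulin+AB. Both the highest and the lowest mouse of DMSO+Sham lay outside the range of DMSO+AB, so that the groups overlapped. The averaged difference of AB from Sham was -0.05 on the log2 scale (95% interval -0.32 to 0.23, adjusted p = 0.869 from limma). The exons of Kcnq1 overlap its antisense gene Kcnq1ot1 over 2.96% of their bases, and those of Kcnd3 overlap Kcnd3os over 1.72%.

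**Figure D3:**
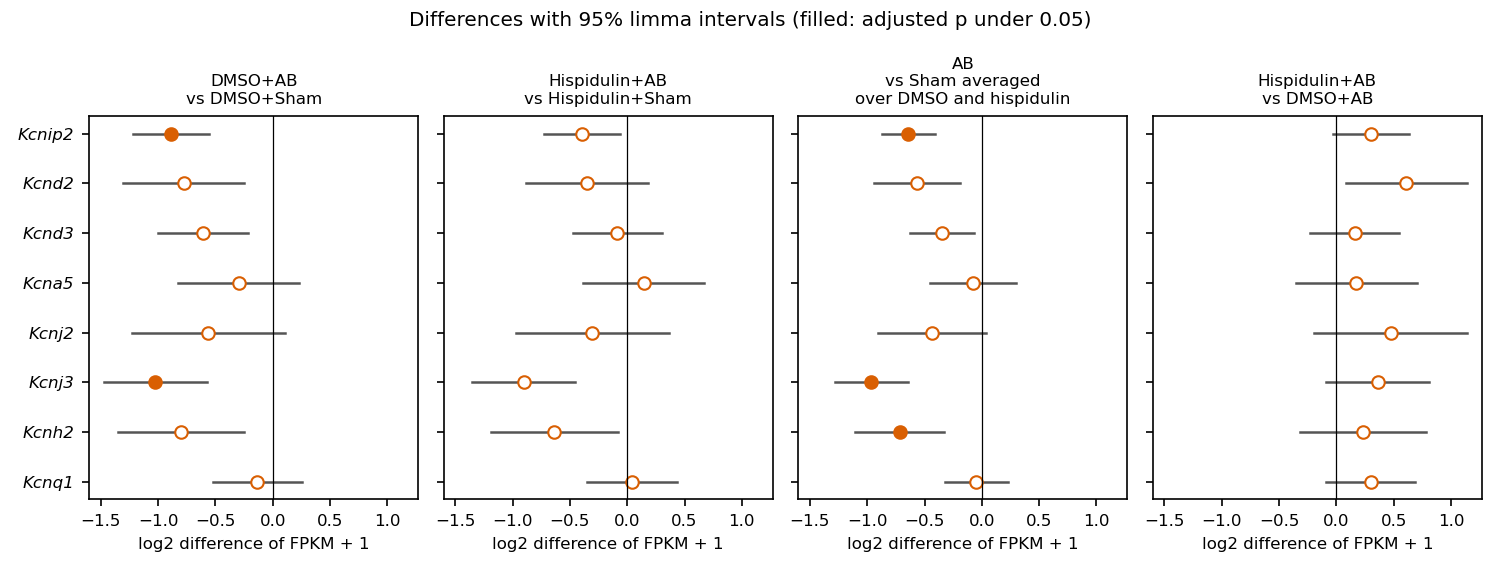
Log2 difference of FPKM + 1 (horizontal axis) of the 8 genes in 4 comparisons, from left to right AB against Sham with DMSO, with hispidulin and averaged over both, and hispidulin+AB against DMSO+AB. Points are limma estimates, lines 95% intervals, and filled points have an adjusted p under 0.05. Filled points are Kcnip2 and Kcnj3 in the first panel and Kcnip2, Kcnj3 and Kcnh2 in the third.

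With hispidulin, AB against Sham gave 0 members with an adjusted p under 0.05 by limma, as it gave 0 of all genes tested (0%). At an unadjusted p under 0.05 there were 3 members, Kcnip2, Kcnj3 and Kcnh2, all lower, against 3.52% of all genes lower and 847 genes (7.26%) in either direction. With library weights, limma called Kcnj3 and 209 genes in all. The same 3 members did not overlap between hispidulin+AB and hispidulin+Sham, against 11.8% of all genes with AB lower. The members' median difference was -0.33, beside -0.02 for all genes. Of the 8 members, 6 were negative, as were 54.9% of all genes, the exceptions being Kcna5 (0.14) and Kcnq1 (0.04).

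A check of AB against Sham that uses no model permuted the labels within each treatment, two-sided and exact, with 400 labellings and a smallest possible p of 0.005. Kcnip2 and Kcnj3 each reached 0.005. The exact permutation p was 0.01 for Kcnh2, 0.015 for Kcnd2 and 0.05 for Kcnd3. It was 0.105 for Kcnj2, 0.735 for Kcnq1 and 0.745 for Kcna5. These p are not adjusted for the 8 members and 3 ratios tested. Members with a p under 0.05 numbered 4, all lower in AB, against 13.3% of all genes tested in this way that were lower. Without the 3 Myl7-high libraries they numbered 2, against 7.12% of all genes. Fewer labellings remain there and the smallest possible p is above 0.005, so the 2 counts are not directly comparable.

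**Figure D4:**
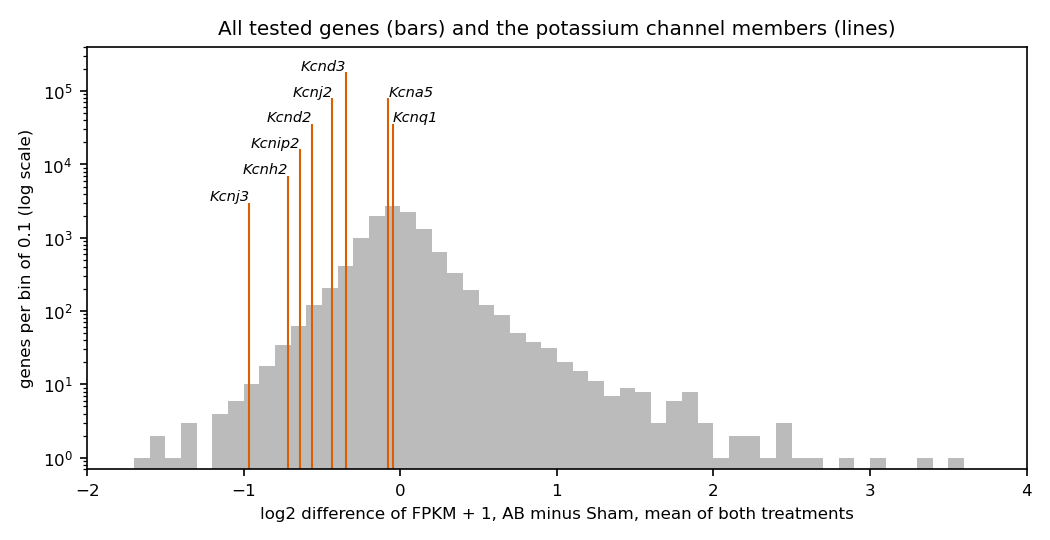
Number of tested genes (vertical axis, log scale) by log2 difference of FPKM + 1 between AB and Sham, averaged over DMSO and hispidulin (horizontal axis, bins of 0.1). Vertical lines mark the 8 members, with heights set only to place the names. Kcnj3 (-0.96), Kcnh2 (-0.72) and Kcnip2 (-0.64) lie in the left tail, and Kcna5 (-0.08) and Kcnq1 (-0.05) near the centre.

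Whether hispidulin changed the members after AB was asked by comparing hispidulin+AB with DMSO+AB. No member passed (0 of 8), and 0 of all genes passed (0%), with 362 genes (3.1%) at an unadjusted p under 0.05 by limma. Of the members 1, Kcnd2, had such an unadjusted p, against 1.6% of all genes on the higher side. None of the 8 members (0) had a negative difference, and 48.6% of all genes did. Kcnd2 had the largest difference, 0.61 higher with hispidulin (95% interval 0.08 to 1.14, unadjusted p = 0.0273 and adjusted p = 0.996 from limma), and its values in both groups overlapped. The difference was 0.47 for Kcnj2 (-0.19 to 1.14), 0.36 for Kcnj3 (-0.09 to 0.81) and 0.30 for Kcnip2 (-0.03 to 0.64). It was 0.30 for Kcnq1 (-0.09 to 0.69), 0.23 for Kcnh2 (-0.32 to 0.78), 0.18 for Kcna5 (-0.35 to 0.70) and 0.16 for Kcnd3 (-0.23 to 0.55). The median of the members was 0.30 and that of all genes 0.00, and 7 of the 8 intervals included 0. Kcnd3 and Kcnq1 did not overlap, all hispidulin+AB mice being above all DMSO+AB mice, as in 4.23% of all genes. The DMSO+AB mice enter this comparison and that with DMSO+Sham, so the directions of both are not independent.

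In mice with a sham operation, hispidulin gave no member (0 of 8) and no gene (0%) with an adjusted p under 0.05, and 287 genes (2.46%) at an unadjusted p under 0.05 by limma. The members' differences ran from -0.36 for Kcnd3 (95% interval -0.75 to 0.03) to 0.24 for Kcnj3 (-0.21 to 0.69). No member separated the groups, against 5.6% of all genes in either direction. The interaction, which asks whether the difference between AB and Sham depended on hispidulin, was passed by 0 members and 0 genes (0%), with 289 genes (2.48%) at an unadjusted p under 0.05. On the higher side 1.29% of all genes had such an unadjusted p, and 1 member, Kcnip2. For Kcnip2 it was 0.49 (95% interval 0.02 to 0.96, unadjusted p = 0.0412, adjusted p = 1.00 from limma). Kcnd3 had the largest value, 0.52 (-0.03 to 1.07), and Kcnj3 the smallest, 0.12 (-0.51 to 0.75). A difference between the treatments in the size of the fall of Kcnip2 was thus not shown by the adjusted test.

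Each library has a numeric code in the labels, whose meaning they do not give. By its first digits, 5 codes belonged to a series 52 and 6 to a series 67, and the code of DMSO+Sham replicate 1 to neither. What the series stand for is not known. Within series 52 (2 AB and 3 Sham mice), AB minus Sham on the log2 scale was -0.73 for Kcnip2, -1.24 for Kcnj3, -0.70 for Kcnh2 and -0.93 for Kcnd2. In series 67 (4 AB and 2 Sham mice) it was -0.41, -0.73, -0.40 and -0.33 for the same genes. The differences of these 4 genes had the same sign in both series. So had those of Kcnd3 (-0.33 and -0.30), Kcnj2 (-0.53 and -0.42) and Kcna5 (-0.03 and -0.19), and those of Kcnq1 (-0.14 and 0.19) did not. By treatment, with 1 or 2 mice on each side, Kcnip2 had -0.85 with DMSO and -0.63 with hispidulin in series 52. In series 67 it had -0.74 and -0.09. With the code series as a factor in the fit, Kcnip2 and Kcnj3 passed averaged over treatments and no member passed with DMSO, where the differences were -0.79 for Kcnip2 (adjusted p = 0.0537) and -0.96 for Kcnj3 (adjusted p = 0.0763).

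Beyond the members, 46 other potassium channel genes were listed, of which 44 had a row and 19 passed the filter. Averaged over treatments, 4 of the 19 passed as lower in AB and 0 as higher, where 3.87% of all genes passed as lower. A negative difference was found in 14 of the 19 and in 55.8% of all genes, with a median of -0.23 beside -0.03. The 4 were 2 of 5 tested voltage-gated pores and 2 of 6 tested inward rectifier and ATP-sensitive channel subunits, and 0 of 5 tested two-pore and calcium-activated channels passed. Kcnv2, which encodes the silent subunit Kv8.2, had an averaged difference of -1.05 (adjusted p = 0.00738 from limma). Its FPKM was 3.21 ± 1.35 in DMSO+Sham and 0.910 ± 0.596 in DMSO+AB, and 3.46 ± 0.623 and 1.25 ± 0.182 with hispidulin. Kcnv2 was the 1 gene of the 19 that also passed with DMSO alone (-1.13, adjusted p = 0.0301). Kcnj5, which encodes GIRK4, the partner of the Kcnj3 product, had an FPKM of 11.3 ± 4.00 in DMSO+Sham and 6.58 ± 0.948 in DMSO+AB, and of 12.2 ± 1.96 and 8.33 ± 0.484 with hispidulin. Its averaged log2 difference was -0.58 (adjusted p = 0.0267), so that messages of both subunits of the acetylcholine-gated channel were lower in AB. Abcc9, which encodes the SUR2 subunit of the channel closed by ATP, had an averaged difference of -0.61 (adjusted p = 0.0318), and Kcna7, which encodes Kv1.7, of -0.34 (adjusted p = 0.0250). None of the 3 tested accessory subunits passed. Kcne1, the partner of the Kcnq1 product, had 0.76 (adjusted p = 0.0861), Kcne4 had 0.29 and Kcnip3 had -0.08. Kcns3 (-0.24), Kcnj12 (-0.42), Kcnk3 (-0.28), Kcnn2 (-0.26) and Kcnk2 (0.14) also had adjusted p above 0.05.

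Regulators and partners of the members were listed as 9 genes, of which 8 were tested. With treatments averaged, Cav3, which encodes caveolin 3, was the 1 that passed, higher in AB (0.39, adjusted p = 0.0222 from limma). Nedd4l, which encodes a ubiquitin ligase that acts on the Kcnq1 channel, passed with DMSO alone (-0.50, adjusted p = 0.0467). Irx4 (-0.34) and Irx5 (0.38), transcription factors of the ventricle that bear on the gradient of Kcnd2 across its wall, did not pass averaged over treatments.

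**Figure D5:**
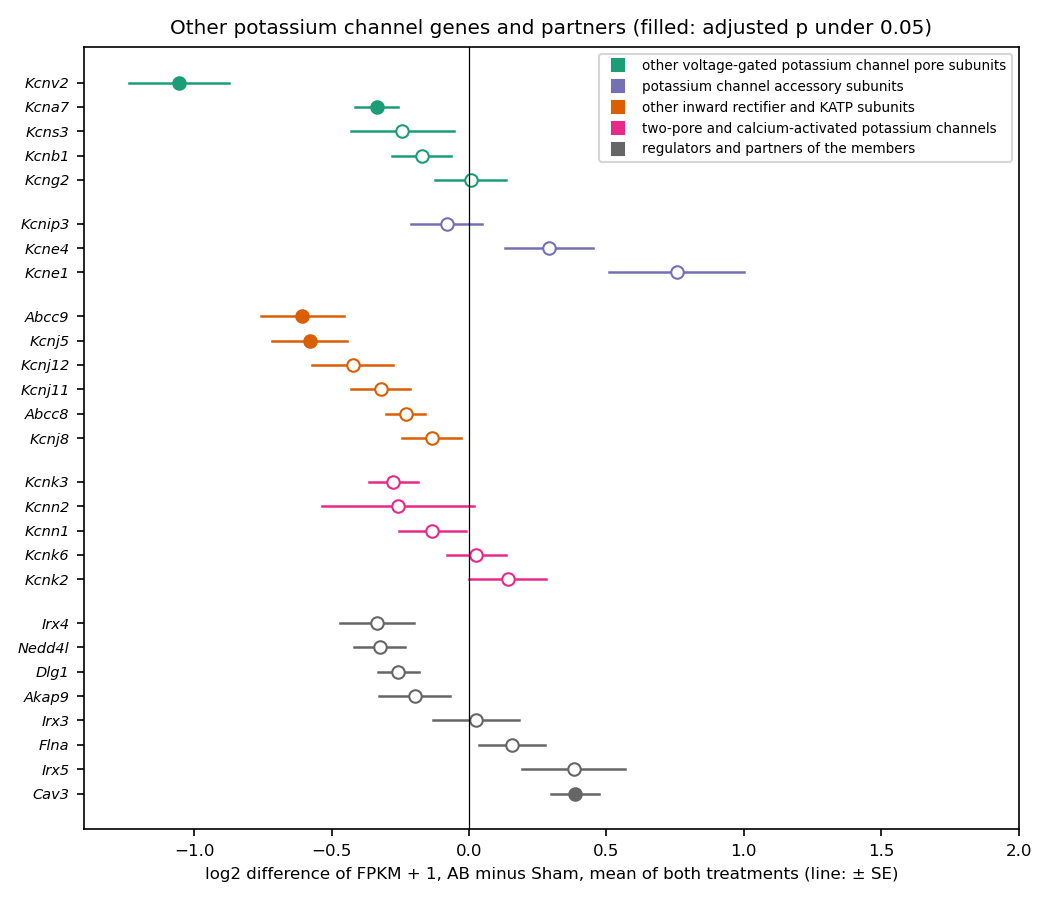
Log2 difference of FPKM + 1 between AB and Sham, averaged over treatments (horizontal axis), of the 19 other potassium channel genes and 8 partners tested, in 5 lists by color. Points are limma estimates, lines ± 1 standard error, and filled points have an adjusted p under 0.05. Kcnv2, Abcc9, Kcnj5 and Kcna7 are filled on the negative side and Cav3 on the positive side.

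Markers of other cells were set beside these values. Averaged over treatments, 2 of 7 fibroblast markers passed as higher in AB, with a summed FPKM of 363 to 446 in DMSO+Sham and 392 to 757 in DMSO+AB. Of the 7 heart muscle markers, 3 passed as higher and 1 as lower, with a summed FPKM of 7770 to 11590 over all mice. With the mean log2 of these 7 subtracted in each library, the averaged differences were -0.72 for Kcnip2, -1.04 for Kcnj3 and -0.80 for Kcnh2, and each passed, as did Kcnd2 (-0.64, adjusted p = 0.0373). This scaling added -0.08 to the log2 difference of every gene. Smooth muscle had 1 of 4 markers that passed, higher in AB, and endothelium, macrophages, the conduction system, and neurons and Schwann cells had 0 of 5, 0 of 5, 0 of 4 and 0 of 2 tested. The 5 atrial markers with a row held 1 that passed, lower in AB, and they summed to 45.1 to 66.4 in DMSO+Sham, 30.3 to 825 in hispidulin+Sham, 21.0 to 192 in DMSO+AB and 28.3 to 113 in hispidulin+AB. The part of these cells in the members' levels was not tested.

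For each member the genes with the most similar pattern were sought among 7663 genes with a mean FPKM of at least 5, by Pearson's r of log2(FPKM + 1) over the 12 mice, as a description. Kcnip2 came closest to Ldhb (0.98), which encodes a subunit of lactate dehydrogenase, and Cacfd1 (0.97). Kcnj3 came closest to Prdx3 (0.95), which encodes a mitochondrial peroxiredoxin, and Rbbp5 (0.95), and Kcnh2 to Rilpl1 (0.98) and Vdac1 (0.95), which encodes a pore of the outer mitochondrial membrane. Kcnd2 was nearest to Ndufa9 (0.94), a complex I subunit, and Rbfox1 (0.93), and Kcnd3 to Epn3 (0.94) and Gramd1b (0.89). Kcna5 was nearest to S1pr1 (0.93) and Zfp36 (0.91), Kcnj2 to Arhgef3 (0.95) and Nrbp2 (0.92), and Kcnq1 to Klf11 (0.85) and Snrk (0.85). Among the 28 pairs of members, r over the 12 mice was positive in 24, with a median of 0.46. With the group means removed it was positive in 21, with a median of 0.18 and a range from -0.81 (Kcnd3 and Kcnj2) to 0.67 (Kcnd2 and Kcnj2). The points of these comparisons share their libraries and library scaling. The r with other genes are the highest of many and include the differences between groups. No theme among those genes was tested.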

How the data were processed

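The authors deposited FPKM of 18079 genes in 12 mice, rounded to 0.01, from single-end 50-base BGISEQ-500 reads of oligo(dT)-selected RNA. The submitters' processing notes name HISAT2 2.0.4, Bowtie2 2.2.5, RSEM 1.2.12 and DESeq2 1.4.5, and the genome build is not given in the sources used here. Steps between low values gave no whole reads (19.2% of their ratios came within 0.1 of whole numbers, and 20% would do so by even spacing), so depth is unknown. FPKM of a mouse summed to 535235 to 567027.

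Symbols were matched to 17947 genes by NCBI Gene identifier in RefSeq. Genes reaching an FPKM of 1 in 3 or more mice (11664) were tested on log2(FPKM + 1) with limma 3.58.1 in R 4.3.3, with 1 mean per group, an eBayes trend, two-sided tests and Benjamini-Hochberg adjustment over all genes tested. Single genes and ratios were also tested by exact permutation within treatment. Python 3.11.15 was used for the sequences, the overlaps of exons and the 50-base stretches (GENCODE). Each library has a title and code of its own in the labels and was taken as 1 mouse. Were they not separate mice, the p-values would measure only the spread between these libraries. Groups were taken from the labels. The members, lists and tests were chosen with earlier results of these data known. Genes of the other lists were named if they passed a comparison or were among the 3 largest differences of their list in AB against Sham averaged over treatments, and marker genes meeting this rule are given as counts. One listed channel gene is not reported here. Results were recomputed with 0.1 in place of 1 added to FPKM, with every gene tested or a minimum of 5, with 3 other scalings, no trend, library weights, replicate number or code series as a factor, only the libraries compared, each library left out in turn, and, added after the data were seen, all 3 libraries of Myl7 FPKM above 20 left out.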

Additional observations from a re-analysis of the deposited data

How the results depend on the processing

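Counting error in the lower genes could not be estimated, since the depth is unknown. A single comparison of 3 mice with 3 cannot give an exact permutation p under 0.1, and the permutation was therefore made over both treatments. Of 1130 values of a member in a comparison under an alternative, 1066 kept their sign and their side of the threshold, 12 passed where they had not, 22 no longer passed and 30 changed sign, 0 of them among values that had passed. The cause of these changes was not tested.

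The count of members past an adjusted p of 0.05 in DMSO+AB against DMSO+Sham, 2, became 4 with library weights, and 0 with the code series as a factor, with only the libraries compared and without the 3 Myl7-high libraries. With 1 library left out it ran from 0 (without DMSO+Sham replicate 1) to 3, and it was 1 without DMSO+AB replicate 2 or replicate 3. In hispidulin+AB against hispidulin+Sham it was 0 and became 1 with library weights and with only the libraries compared. Averaged over treatments it was 3 and became 1 without the 3 Myl7-high libraries, 2 without a filter or with the series as a factor, and 4 with library weights, heart muscle markers subtracted or the replicate block, with 2 to 3 when 1 library was left out. The count from exact permutation, 4, became 2 without these libraries, where fewer labellings remain, and ran from 3 to 5 with 1 left out. Kcnip2 passed the averaged comparison in 23 of 23 alternatives, Kcnj3 in 22 and Kcnh2 in 12.

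Counts over all genes moved by more than 1.5 times. With DMSO, 608 became 383 without a filter, 1423 with library weights, 142 with the series as a factor, 20 without the 3 Myl7-high libraries and 11 with only the libraries compared (91 to 1053 with 1 library left out). With hispidulin, 0 became 2 without a filter and with median-of-ratios scaling, 3 with quantile normalization, 209 with library weights and 49 with only the libraries compared (0 to 9 with 1 left out). Averaged, 862 became 2535 with library weights, 547 with the series and 74 without the 3 Myl7-high libraries (376 to 1220). In hispidulin+AB against DMSO+AB, 0 became 2 without a filter (0 to 20), and the interaction gave 0 to 3.

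Same-numbered mice of different groups had a mean residual correlation of 0.0578 over 18 pairs (from -0.42 to 0.33). Other pairs had a mean of -0.0289 over 36 pairs (from -0.40 to 0.38). With overlapping ranges and few mice in each group, this check could not decide whether the numbers mark a pairing. With the replicate block, Kcnd2 passed averaged over treatments (-0.56, adjusted p = 0.0473 from limma). The block gave 640 genes with DMSO, 866 averaged and 17 with hispidulin, and changed no other member's call.

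The sign of unpassed log2 differences changed as follows. With the code series as a factor, Kcnq1 became 0.036 with DMSO and 0.056 averaged, and the interaction of Kcnj2 became -0.13. With heart muscle markers subtracted, Kcnq1 became -0.027 with hispidulin. With library weights, hispidulin+Sham against DMSO+Sham became -0.014 for Kcnd2, 0.012 for Kcna5, -0.27 for Kcnj2, -0.042 for Kcnh2 and -0.12 for Kcnq1. Without the 3 Myl7-high libraries, Kcna5 became 0.011 with DMSO, 0.096 averaged (also in the permutation) and -0.091 in hispidulin+AB against DMSO+AB. There, Kcnj2 became 0.0088 with hispidulin, the interaction of Kcnh2 became -0.14, and the log2 ratios became -0.095 for Kcnip2 to Kcnd2, 0.14 for Kcnd2 to Kcnd3 and -0.053 for Kcnip2 to their sum.

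With 1 library left out, AB against Sham with DMSO ran from -0.38 to 0.018 for Kcnq1 and from -0.49 to 0.011 for Kcna5. With hispidulin it ran from -0.21 to 0.14 for Kcnd3 and from -0.042 to 0.11 for Kcnq1. Averaged, in limma and in the permutation, it ran from -0.17 to 0.030 for Kcnq1 and from -0.18 to 0.077 for Kcna5. In hispidulin+AB against DMSO+AB, Kcna5 ran from -0.13 to 0.38. In hispidulin+Sham against DMSO+Sham, Kcnj2 ran from -0.099 to 0.51, Kcnh2 from -0.18 to 0.26 and Kcnq1 from -0.12 to 0.28. The interaction ran from -0.036 to 0.57 for Kcnj2, from -0.034 to 0.32 for Kcnj3 and from -0.026 to 0.41 for Kcnh2. The log2 ratio of Kcnip2 to Kcnd2 ran from -0.035 to 0.24, and that to the sum of Kcnd2 and Kcnd3 from -0.049 to 0.11. That of Kcnd2 to Kcnd3 kept its sign and ran from -0.46 to -0.024.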
